A study of Mus musculus with 8 samples.

Results

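Cathepsins are proteases of the endosome and lysosome, and 10 of them were followed here in RNA-seq of mouse CD4 T cells: Ctse, Ctsw, Ctsa, Ctsb, Ctsc, Ctsd, Ctsh, Ctsl, Ctss and Ctsz. The genes were taken by symbol, and all 10 had a row among the 11354 genes of the count table. They were selected on their measured difference between the libraries labelled knock-out and wild type, which was already known, above all that of Ctse. For that reason their levels and differences between the labels are described without a test.

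The libraries were made from CD4 T cells of Nlrp6-/- donors (4 libraries, KO 1, KO 2, KO 4 and KO 5) or of wild-type donors (4 libraries, WT 1, WT 2, WT 4 and WT 5), and the number is that of the host. All hosts were RAG-/- mice, which lack their own T and B lymphocytes but keep myeloid cells, and the strain background is given as Black6. Sex, age and the time after transfer were not stated. For the tissue, 1 label field names the spleen of the host, whereas the extraction protocol names colonic lamina propria.

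Nlrp6 itself went against the labels: its counts were 487, 329, 477 and 648 in KO 1, KO 2, KO 4 and KO 5, against 5, 3, 3 and 8 in WT 1, WT 2, WT 4 and WT 5. KO and WT therefore name the library labels here and not a checked genotype. Totals were 35198192 to 39325381 counts in the libraries labelled KO and 38003997 to 40310721 in those labelled WT. Of the T cell markers, 10 of 13 had a row, and Cd4 averaged 1222 ± 174 CPM in the libraries labelled KO and 1446 ± 112 CPM in those labelled WT (SD, n = 4 each). Zap70 alone was called by edgeR, as lower (-0.27). At an unadjusted edgeR p under 0.05, 4 of the 10 were lower and 0 higher, and DESeq2 called 2. Of 7 B cell markers, 0 had a row. Levels are in CPM, counts scaled to library size with edgeR's TMM factors. Log2 fold changes are KO over WT ± SE from edgeR's quasi-likelihood fit over all genes, which called a gene at a Benjamini-Hochberg adjusted p below 0.05. The labels do not say whether a host number is 1 mouse that received both kinds of cells, so p-values cover only how much these libraries vary, which may be partly technical.

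The cathepsins belong to different enzyme classes that share a compartment rather than an ancestor. Ctse and Ctsd are aspartic proteases, Ctsa is a serine carboxypeptidase, and the others are cysteine proteases of the papain family. Ctsd, Ctsb and Ctsl are general lysosomal proteases of most cells, Ctss degrades the invariant chain of MHC class II in antigen-presenting cells, Ctsc activates granule serine proteases such as granzymes, and Ctsw is best known from cytotoxic T cells and natural killer cells. Ctse is an endosomal rather than a classical lysosomal enzyme and is known from gastric epithelium, red cells and several kinds of immune cell.

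The class of a cathepsin can be read from the coding bases around its catalytic residue. Below are 45 coding bases of 6 members, shown as examples of each class. They include members that differed between the labels and others that differed little. The codon of the catalytic residue (aspartate in Ctse and Ctsd, cysteine in Ctsh, Ctss and Ctsw, serine in Ctsa) is in capitals, and the bases come from the GENCODE M21 transcripts of GRCm38, all in coding exons and on the strand of the gene.
Ctse: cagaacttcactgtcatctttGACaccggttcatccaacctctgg
Ctsd: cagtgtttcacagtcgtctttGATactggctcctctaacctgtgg
Ctsh: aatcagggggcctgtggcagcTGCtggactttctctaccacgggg
Ctss: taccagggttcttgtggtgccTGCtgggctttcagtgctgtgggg
Ctsw: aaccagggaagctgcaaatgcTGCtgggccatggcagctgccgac
Ctsa: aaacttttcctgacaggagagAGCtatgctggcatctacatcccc
Counted from the start codon, the capitals are codon 97 in both Ctse and Ctsd. The Ctse stretch was identical to that of Ctsd at 34 of 45 bases, and to those of the other 8 members at 8 to 13 bases.

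Ctse (chromosome 1, 131638314 to 131675507, plus strand, GRCm38) was the member with the largest decrease. Its level was 76.0, 61.6, 69.9 and 65.8 CPM in KO 1, KO 2, KO 4 and KO 5, against 339.8, 343.9, 314.4 and 290.0 CPM in WT 1, WT 2, WT 4 and WT 5. The highest library labelled KO thus lay far below the lowest library labelled WT, and within each label the libraries lay close together, with a coefficient of variation of 8.99% in KO and 7.78% in WT. The log2 fold change was -2.24 ± 0.08, a level 4.71-fold lower in the libraries labelled KO. No other gene of the annotation overlaps Ctse.

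The other aspartic member, Ctsd (chromosome 7, 142375910 to 142387827, minus strand), is the main aspartic protease of lysosomes, and it differed little. Its level was 607.9, 672.8, 705.2 and 631.5 CPM in KO 1, KO 2, KO 4 and KO 5, against 769.0, 755.3, 719.2 and 707.2 CPM in WT 1, WT 2, WT 4 and WT 5. All the libraries labelled KO were below all those labelled WT, by a small margin between KO 4 and WT 5, and the log2 fold change was -0.17 ± 0.06. Ctsd shares 6757 bases of its span with Gm49369, a gene model on the same strand, so its count is uncertain where reads were shared.

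Ctsw (chromosome 19, 5465043 to 5468628), the lymphocyte member, was at 453.6, 484.8, 382.2 and 448.9 CPM in KO 1, KO 2, KO 4 and KO 5, against 341.6, 336.6, 317.0 and 376.4 CPM in WT 1, WT 2, WT 4 and WT 5. The lowest library labelled KO, KO 4, was only just above WT 5, the highest one labelled WT. Its log2 fold change was 0.37 ± 0.08, a level 1.29-fold higher.

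Among the members known from myeloid and antigen-presenting cells, Ctsh (chromosome 9, 90054267 to 90076095), an aminopeptidase, differed by the largest ratio. It was at 8.25, 15.0, 30.4 and 17.3 CPM in KO 1, KO 2, KO 4 and KO 5, against 2.30, 1.61, 0.961 and 1.25 CPM in WT 1, WT 2, WT 4 and WT 5. The groups did not overlap, KO 4 held 3.68 times as much as KO 1, and the log2 fold change was 3.53 ± 0.42.
Ctsl (chromosome 13, 64361890 to 64370772) was also low, at 8.36, 10.1, 17.4 and 14.9 CPM in KO 1, KO 2, KO 4 and KO 5, against 5.61, 3.92, 4.73 and 4.83 CPM in WT 1, WT 2, WT 4 and WT 5. The groups again did not overlap, and the log2 fold change was 1.41 ± 0.23. In the GENCODE annotation, where Ctsl spans 64359337 to 64370890, an antisense gene, Gm47123, covers 1971 bases of that span. A processed pseudogene on the same strand, Gm49230, covers 395 bases, so the Ctsl count is uncertain where reads were shared. Whether reads were counted by strand is not given in the sources used here.

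Ctss (chromosome 3, 95526786 to 95556405) was at 121.3, 141.8, 208.2 and 151.2 CPM in KO 1, KO 2, KO 4 and KO 5, against 96.2, 97.1, 98.2 and 80.6 CPM in WT 1, WT 2, WT 4 and WT 5 (log2 fold change 0.74 ± 0.15). Ctsc (chromosome 7, 88278024 to 88315861) was at 201.1, 257.7, 350.1 and 298.2 CPM in KO 1, KO 2, KO 4 and KO 5, against 148.0, 172.6, 169.3 and 200.2 CPM in WT 1, WT 2, WT 4 and WT 5 (0.68 ± 0.16). Ctsz (chromosome 2, 174427494 to 174439039), a carboxypeptidase, was at 45.4, 53.8, 78.8 and 63.9 CPM in KO 1, KO 2, KO 4 and KO 5, against 34.3, 33.1, 30.3 and 36.8 CPM in WT 1, WT 2, WT 4 and WT 5 (0.85 ± 0.15). In all 3 genes every library labelled KO was above every library labelled WT, though in Ctsc the distance between KO 1 and WT 5 was under 1 CPM, and KO 4 was the highest and KO 1 the lowest of the libraries labelled KO.

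Ctsa (chromosome 2, 164832872 to 164841032), the protective protein of the sialidase Neu1 and the galactosidase Glb1, ranged from 273.6 to 299.5 CPM in the libraries labelled KO and from 241.4 to 291.0 CPM in those labelled WT (0.07 ± 0.06). Ctsb (chromosome 14, 63122462 to 63145923), an abundant lysosomal endopeptidase, ranged from 299.8 to 401.6 CPM in the libraries labelled KO and from 346.3 to 411.4 CPM in those labelled WT (-0.09 ± 0.09). Both overlapped between the labels. Ctsa overlaps the measured gene Pltp on the other strand over 1515 bases, and Ctsb overlaps Fdft1 likewise over 774 bases.

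**Figure D1:**
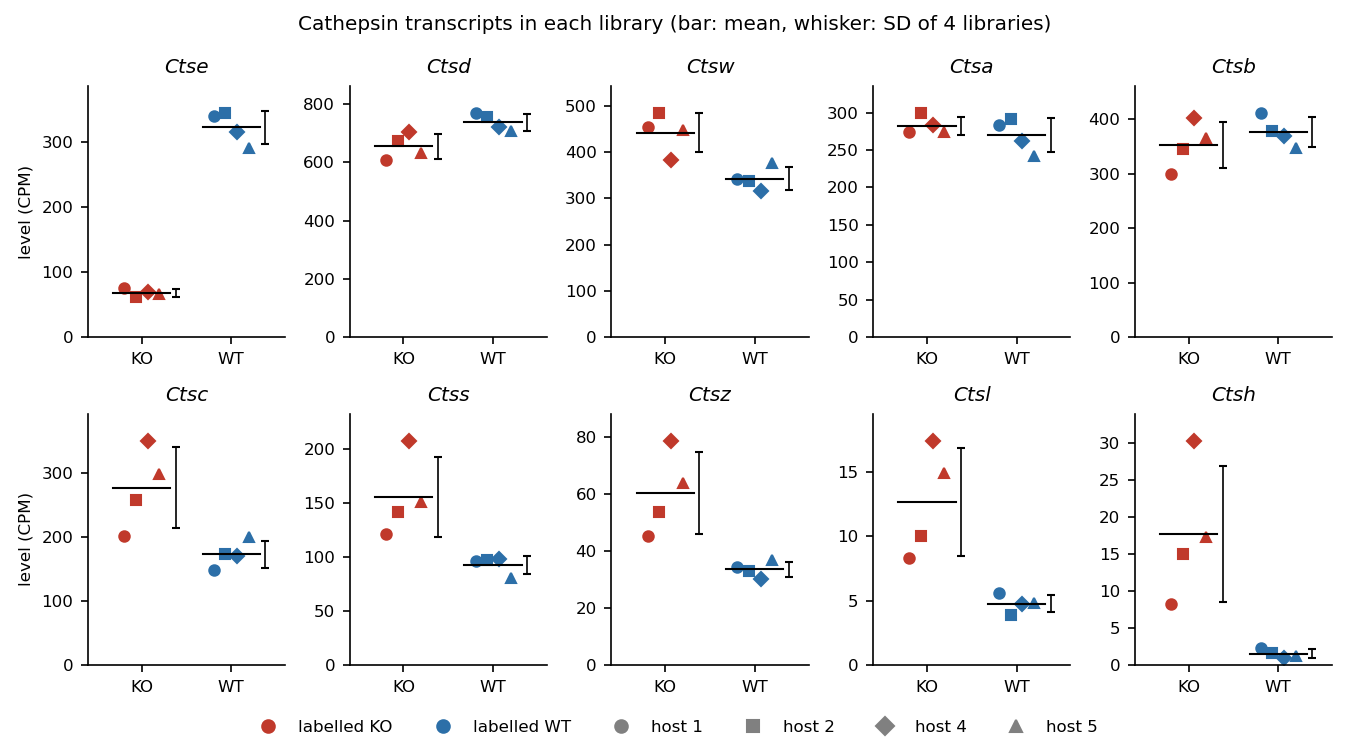
Level of each of the 10 cathepsins in CPM (linear axes that start at 0), with 1 point per library, the libraries labelled KO left of those labelled WT, the marker shape giving the host, a bar for the mean and a whisker for the SD of 4 libraries. Ctse lies at 61.6 to 76.0 CPM in the libraries labelled KO and at 290.0 to 343.9 CPM in those labelled WT, whereas in Ctsc, Ctss, Ctsz, Ctsl and Ctsh the libraries labelled KO are higher and spread from KO 1 up to KO 4.

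Counted over the members, edgeR's fit, which called 1140 of the 11354 genes, placed 6 of 10 past its threshold as higher (Ctsh, Ctsl, Ctsz, Ctss, Ctsc and Ctsw) and 1 of 10 as lower (Ctse), where 6.20% and 3.84% of all 11354 genes were called higher and lower. The libraries labelled KO were all above those labelled WT for 6 members, where 8.60% of all genes were, and all below for 2 members, where 7.37% of all genes were. In either direction that makes 8 of 10 members, and 16.0% of all genes, whose libraries did not overlap between the labels. The median log2 fold change was 0.52 over the members and -0.0026 over all genes. Because the members were picked with this difference in view, nothing is read from these counts. With 1 library left out at a time, 4 to 6 members stayed past the threshold as higher.

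Per kilobase of gene length, in RPKM, counts scaled to library size and to the table's gene length, the order of the cathepsins also differed between the labels. In the libraries labelled KO the order of mean level was Ctsw (359 ± 35.0 RPKM), Ctsd (335 ± 22.1), Ctss (114 ± 27.4), Ctsa (77.9 ± 3.34), Ctsb (74.4 ± 8.95), Ctsc (52.2 ± 11.9), Ctsz (43.4 ± 10.3), Ctse (11.3 ± 1.01), Ctsh (10.9 ± 5.70) and Ctsl (6.44 ± 2.14), as mean ± SD of 4 libraries. Neighbours in that order overlapped in their libraries, except between Ctsd and Ctss, Ctss and Ctsa, and Ctsz and Ctse.
In the libraries labelled WT the order was Ctsd (378 ± 14.9 RPKM), Ctsw (278 ± 20.1), Ctsb (79.3 ± 5.72), Ctsa (74.4 ± 6.18), Ctss (68.4 ± 6.13), Ctse (53.2 ± 4.13), Ctsc (32.6 ± 4.05), Ctsz (24.1 ± 1.92), Ctsl (2.42 ± 0.349) and Ctsh (0.943 ± 0.356). Here Ctsb, Ctsa and Ctss overlapped with their neighbours and the others did not. Ctse was thus 8th of 10 in the libraries labelled KO, next to Ctsh, and 6th of 10 in those labelled WT, between Ctss and Ctsc.

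Ctse made up 1.25%, 0.917%, 1.00% and 1.00% of the summed RPKM of the 10 members in KO 1, KO 2, KO 4 and KO 5, against 5.50%, 5.64%, 5.43% and 4.88% in WT 1, WT 2, WT 4 and WT 5. The sum itself was 1085 ± 63.1 RPKM in the libraries labelled KO and 991 ± 28.1 RPKM in those labelled WT (SD, n = 4 each). Ctsd made up 30.9 ± 0.691% of it in the libraries labelled KO and 38.1 ± 0.812% in those labelled WT, and Ctss 10.5 ± 1.98% and 6.90 ± 0.634% in the same order of labels. Ctsd and Ctsw together made up most of the sum in every library, and the Ctse share was lower in every library labelled KO than in every one labelled WT.

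**Figure D2:**
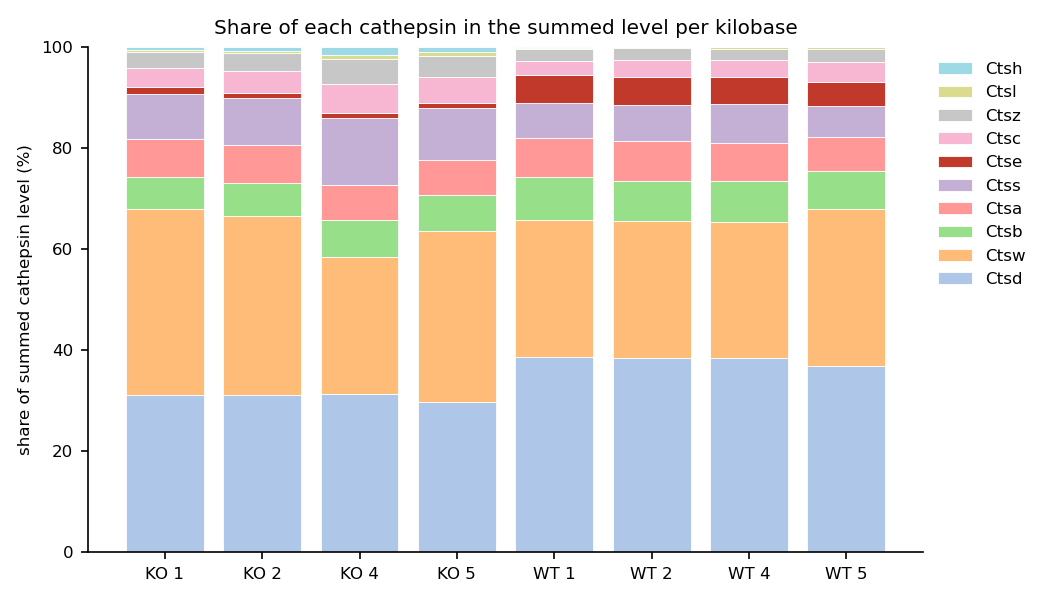
Share of each cathepsin in the summed level per kilobase (percent of the summed RPKM of 10 members, linear axis) in each library, those labelled KO on the left. Ctse, in dark red, takes 0.917% to 1.25% in the libraries labelled KO and 4.88% to 5.64% in those labelled WT, and Ctsd and Ctsw take the largest shares in all 8 libraries.

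The myeloid content of the libraries moved with the labels and is given here beside the members. Of the 20 myeloid markers listed, 19 had a row, none was at 0 counts in any library, and edgeR called 18 of the 19 higher and 0 lower in the libraries labelled KO, led in level by Lyz2, Csf1r, Cybb and Cd14. Their summed level was 304, 536, 957 and 705 CPM in KO 1, KO 2, KO 4 and KO 5, against 91.4, 73.3, 54.0 and 68.9 CPM in WT 1, WT 2, WT 4 and WT 5. In bulk RNA, a different number of cells of a type and a different amount of RNA per cell cannot be told apart.

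Among the libraries labelled KO, the order of this sum from low to high was KO 1, KO 2, KO 5 and KO 4. Ctsb, Ctsc, Ctsh, Ctsl, Ctss and Ctsz, 6 of the 10 members, had exactly that order, where 6.22% of all genes did. Ctse, Ctsd, Ctsa and Ctsw had other orders. Ctse was highest in KO 1, the library with the least myeloid marker RNA of its label. Its highest and lowest values under that label differed 1.23-fold, while the marker sum differed 3.15-fold. A narrow range there was not particular to Ctse: it was 1.09-fold for Ctsa, 1.16-fold for Ctsd, 1.27-fold for Ctsw and 1.34-fold for Ctsb. In the libraries labelled WT, where the sum differed 1.69-fold, its order was WT 4, WT 5, WT 2 and WT 1, and Ctsh alone of the members had that order (4.01% of all genes). These orders rest on 4 libraries each and were not tested.

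Set against the same marker sum, Ctsh was the only member whose ratio overlapped between the labels. It had 2.71, 2.80, 3.17 and 2.45 CPM for each 100 CPM of myeloid markers in KO 1, KO 2, KO 4 and KO 5, against 2.52, 2.19, 1.78 and 1.82 in WT 1, WT 2, WT 4 and WT 5. The other 9 members had a lower ratio in every library labelled KO than in every library labelled WT. The marker sum itself was higher in every library labelled KO than in every one labelled WT. A gene that rose less than the sum therefore tends to a lower ratio there. The share of all genes with such a ratio was not computed, and nothing is read from this count. For Ctss the ratio was 27.4 ± 8.63 in the libraries labelled KO and 134 ± 33.8 in those labelled WT, and for Ctse 13.3 ± 7.99 and 461 ± 90.2 in the same order (SD, n = 4 each). The part of the myeloid markers in these differences was not tested.

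**Figure D3:**
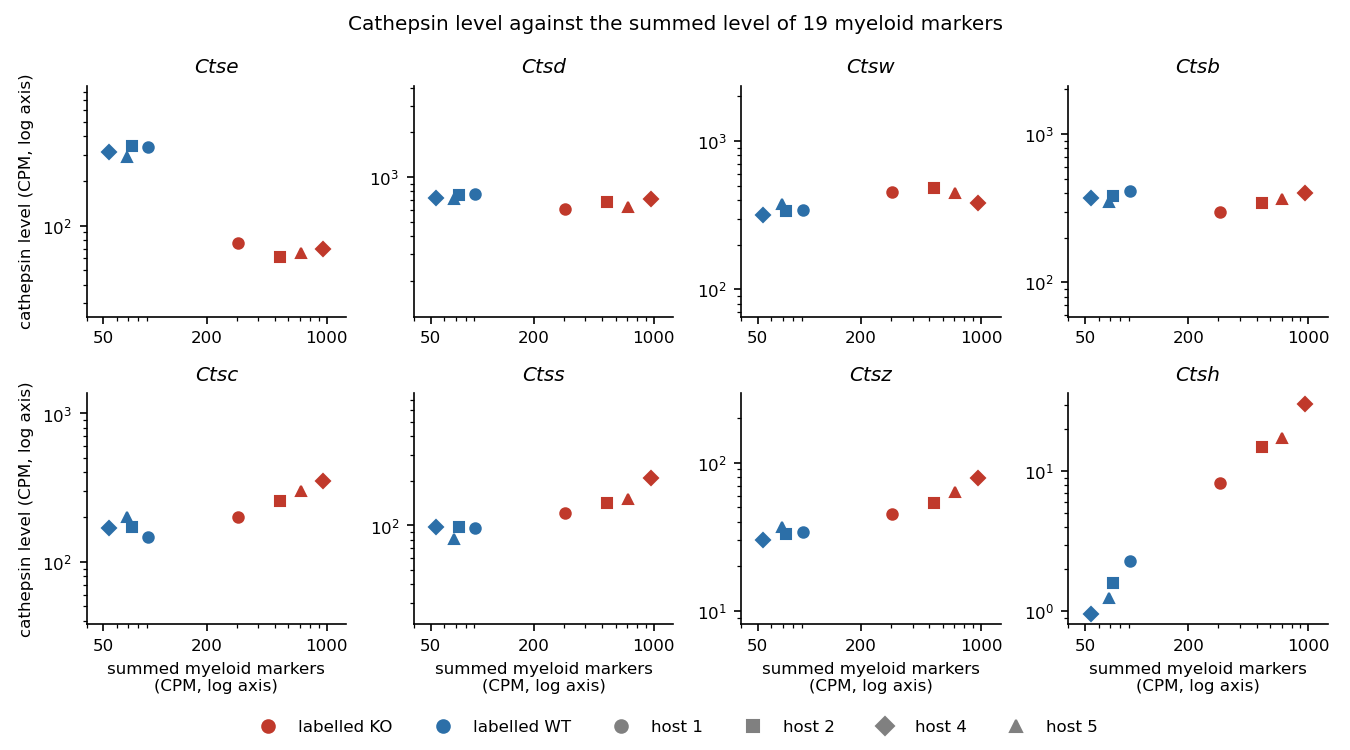
Level of 8 cathepsins (CPM, log axis) against the summed level of 19 myeloid markers (CPM, log axis), with 1 point per library, red for the libraries labelled KO and blue for those labelled WT, the marker shape giving the host. Ctsh climbs along the whole range of the marker sum, Ctsc, Ctss and Ctsz climb over the libraries labelled KO, from 304 to 957 CPM of markers, and Ctse stays between 61.6 and 76.0 CPM there.

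Markers of other cell types, among them red cells and epithelium, in which Ctse is known, were read in the same way. Of 9 red cell markers, Hba-a2 and Hbb-bs had rows, with a summed 10.9 to 21.7 CPM in the libraries labelled KO and 13.2 to 25.8 CPM in those labelled WT, and edgeR, DESeq2 and limma-voom each called 0 of them (0 at an unadjusted edgeR p under 0.05). Of 12 epithelial markers 6 had rows, with 46.0 to 54.6 CPM in the libraries labelled KO and 43.9 to 59.5 CPM in those labelled WT, and edgeR, DESeq2 and limma-voom each called 0. At an unadjusted edgeR p under 0.05 there were 2, Lgals4 (-0.23 ± 0.10) and Tff1 (-0.47 ± 0.19), both lower, and Cdh1 and Krt18 were not among them. Both sums overlapped between the labels. Of 10 neutrophil markers 7 had rows, and Ly6g, Cxcr2 and Retnlg had none. Of the 7, 6 were called higher and 0 lower, among them Csf3r, S100a9 and S100a8 but not Mmp9. Their sum was 40.3 to 88.2 CPM in the libraries labelled KO and 14.6 to 23.2 CPM in those labelled WT. Of 10 dendritic cell markers listed, only 4 had a row (Sirpa, Itgax, Zbtb46 and Batf3), and Flt3, Xcr1 and Clec9a were among those without. Sirpa and Batf3, 2 of the 4, were called higher. The sum of the 4 was 30.4 to 77.5 CPM in the libraries labelled KO and 11.4 to 20.7 CPM in those labelled WT. In the list for CD8 and natural killer cells, 2 of 6 with a row were called higher, Tyrobp and Cd8a, and Cd8a overlapped between the labels. The libraries of Tyrobp (3.35 ± 0.41) ran in the order of the myeloid marker sum under both labels. Klrd1 (0.61 ± 0.28), Eomes (-0.05 ± 0.15), Cd8b1 (-0.29 ± 0.48) and Klrb1c (-0.02 ± 0.19) were not called. The part of these cell types in the members' differences was not tested.

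The submitters' library names carry a number, not explained by the labels, that is 8 for KO 4 and KO 5 and 7 for the other libraries, and it is called the library code here. Ctse averaged 67.8 CPM in the libraries labelled KO with code 8 and 68.8 CPM in those with code 7, and with the code as a term its log2 fold change was -2.23. Ctsh averaged 23.8 CPM with code 8 and 11.6 CPM with code 7, and its log2 fold change became 2.92. Ctsc (0.41) and Ctss (0.50) stayed higher with the code as a term but were no longer past edgeR's threshold. All libraries labelled WT had code 7. With the code as a term, a log2 fold change therefore rests on KO 1 and KO 2 against the libraries labelled WT. The same holds wherever the code is a term below. KO 4 and KO 5 were also the libraries with the most myeloid marker RNA, so the code and the marker sum cannot be told apart.

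Genes that work with the cathepsins were taken from lists and read from the same fit. The counts of these lists stand beside 6.20% of all genes called higher and 3.84% called lower. Of the 5 inhibitors of cysteine cathepsins with a row, of 12 listed, 1 rose and 0 fell. The riser was cystatin C, Cst3, at 61.7 ± 6.32 CPM in the libraries labelled KO and 47.8 ± 1.77 CPM in those labelled WT (0.37 ± 0.07, edgeR adjusted p = 0.0103). Cst7, the leukocystatin, Cstb, and the T cell genes Ctla2a and Ctla2b, which encode cathepsin L inhibitors in mice, did not pass the test, and all 4 overlapped between the labels. Of the further cathepsins listed, Ctso had a row. It fell, at 42.4 ± 0.958 CPM in the libraries labelled KO and 48.9 ± 1.86 CPM in those labelled WT (-0.21 ± 0.05, edgeR adjusted p = 0.0177), a call that ended without WT 1 (adjusted p = 0.0539), without WT 4 (0.0512) and with the library code as a term (0.117).

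Among 8 other aspartic proteases with a row, 1 rose and 1 fell. Bace2, a membrane-bound aspartic protease related to the beta-secretase, was at 2.48, 2.21, 2.08 and 1.16 CPM in KO 1, KO 2, KO 4 and KO 5, against 10.3, 9.12, 9.69 and 5.85 CPM in WT 1, WT 2, WT 4 and WT 5 (-2.14 ± 0.25, edgeR adjusted p = 0.000631). Psen2, a catalytic subunit of gamma-secretase, was at 44.7 ± 3.38 CPM in the libraries labelled KO and 28.9 ± 2.54 CPM in those labelled WT (0.63 ± 0.08, adjusted p = 0.000853). Napsa, the gene of napsin A, had a log2 fold change of -0.07 ± 0.25 and did not pass. Of the 9 other measured aspartic proteases, Bace2 alone was lower by a ratio near that of Ctse.

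Of 13 genes for sorting to the lysosome and for partners of the cathepsins, 3 rose and 0 fell. Lgmn, the gene of legumain, which processes several cathepsin precursors, was at 22.1 ± 9.39 CPM in the libraries labelled KO and 2.66 ± 0.615 CPM in those labelled WT (3.05 ± 0.34, edgeR adjusted p = 0.000512). The sorting receptor gene Sort1 was low under both labels, at 1.62 ± 0.488 CPM in the libraries labelled KO and 0.412 ± 0.114 CPM in those labelled WT (1.97 ± 0.30, adjusted p = 0.00249). Prosaposin, Psap, whose peptides activate lysosomal lipid hydrolases, also rose (0.27 ± 0.07, adjusted p = 0.0338). With 1 library left out, that call held only without KO 1, and it ended with the host number as a block (adjusted p = 0.0980) and with the library code as a term (0.217). Neu1 (0.28 ± 0.09) and Glb1 (-0.07 ± 0.06), the partners of Ctsa, did not pass, nor did the mannose 6-phosphate receptors M6pr (-0.06 ± 0.05) and Igf2r (0.15 ± 0.07). Of 3 lysosomal transcription factors with a row, Mitf rose (1.79 ± 0.32, edgeR adjusted p = 0.00615), at 1.11 to 3.26 CPM in the libraries labelled KO and 0.510 to 0.759 CPM in those labelled WT, while Tfeb (-0.23 ± 0.06) and Tfe3 (0.13 ± 0.04) did not pass.

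Genes of MHC class II processing, in which Ctss and Ctsl act on the invariant chain, rose in 8 of 10 and fell in 0. The invariant chain gene Cd74 was at 401 ± 160 CPM in the libraries labelled KO and 46.1 ± 8.44 CPM in those labelled WT (3.12 ± 0.29, edgeR adjusted p = 0.000309). H2-Aa (3.62), H2-Ab1 (3.68), H2-Eb1 (3.71), H2-DMb1 (3.01), H2-DMb2 (2.35), the regulator Ciita (3.20) and the thiol reductase Ifi30 (1.01) also rose, the largest of their edgeR adjusted p-values being 0.00253. H2-DMa (0.73 ± 0.21) and H2-Oa (0.21 ± 0.16) did not pass. Granule proteases, the substrates of Ctsc, and their partners gave another picture: 0 of 8 rose and 0 fell (2 at an unadjusted p under 0.05, both higher), and DESeq2 and limma-voom also called 0, whereas 1 was called higher and 1 lower with the host number as a block. In the other settings that called any, 1 was lower with the library code as a term, 1 higher without KO 2 and 1 lower without WT 5. Of the 4 with the smallest p, Gzma (1.19 ± 0.39) and Gzmm (0.56 ± 0.20) were higher, and Gzmk (-0.54 ± 0.25) and Gzmc (-0.41 ± 0.21) lower, all in overlapping groups and short of the threshold. The myeloid marker sums given above moved in the same libraries as the MHC class II genes and Lgmn, and their part in these changes was not tested.

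**Figure D4:**
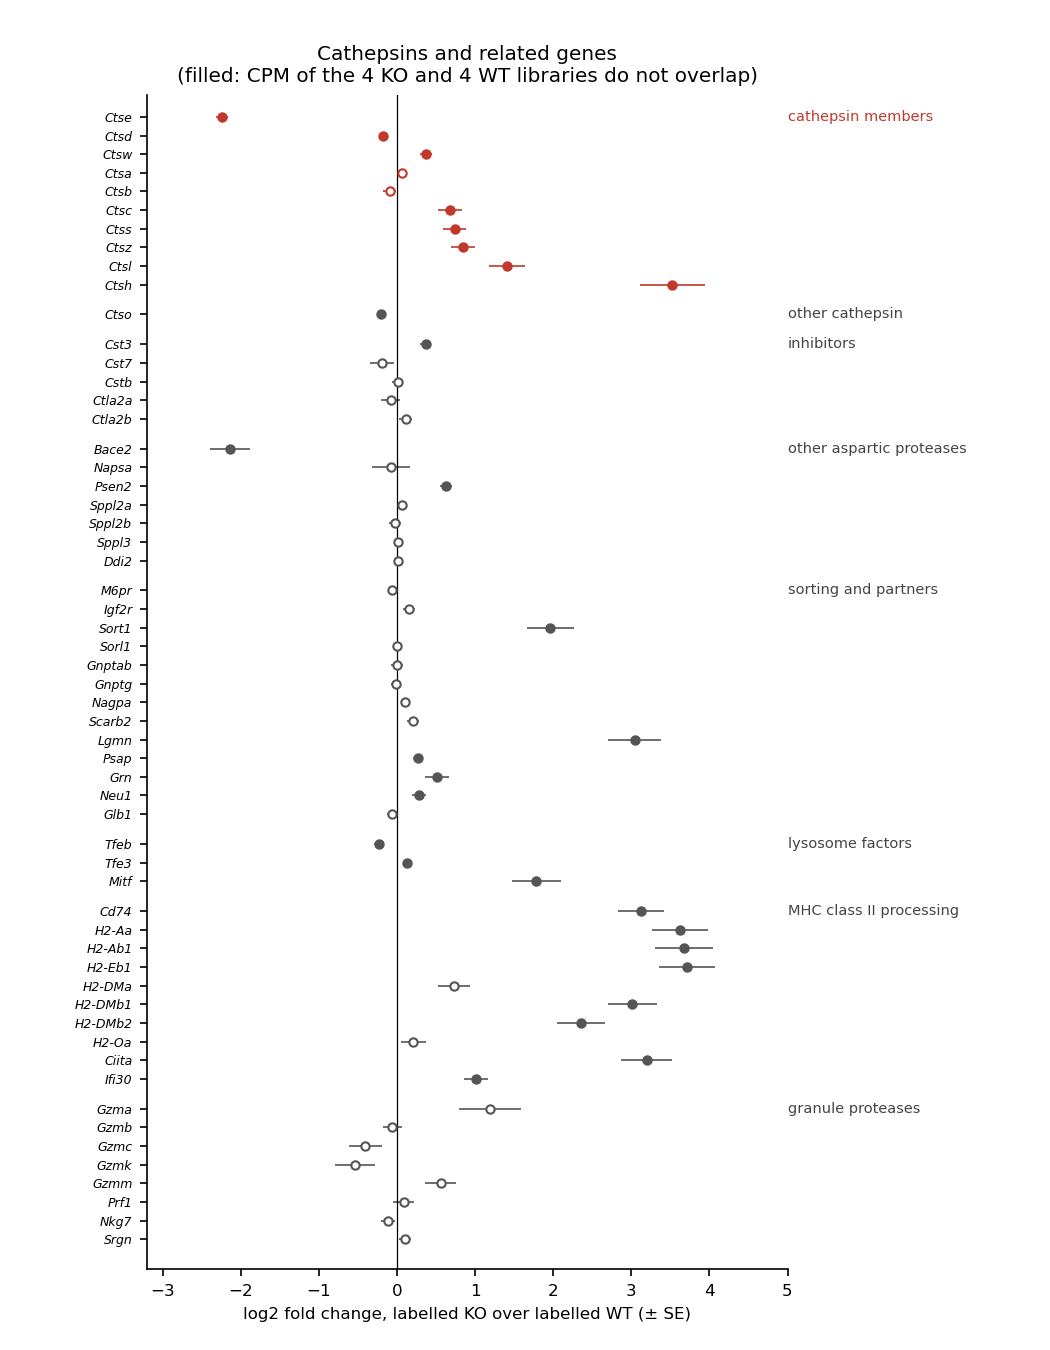
Log2 fold change of the libraries labelled KO over those labelled WT (± SE, linear axis) for the 10 cathepsins in red and for related genes in grey, by list. Filled points mark genes whose 4 KO and 4 WT libraries do not overlap in CPM. Ctse (-2.24) and Bace2 (-2.14) stand to the left, and Ctsh (3.53), Lgmn (3.05) and most MHC class II genes to the right.

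Among 10509 genes averaging 1 or more in log2 CPM, the 5 whose levels over the 8 libraries were most like those of Ctse were Ptprv, Bace2, Mpp7, Hlf and Cxcr5. Likeness was the root mean square difference of log2 CPM, each gene centred on its own mean, and it was 0.18, 0.33, 0.37, 0.40 and 0.42 log2 units for these genes in that order. Ptprv, a receptor-type phosphatase gene on chromosome 1 (135108498 to 135132575), was at 26.9, 25.1, 25.6 and 34.6 CPM in KO 1, KO 2, KO 4 and KO 5, against 137.1, 126.1, 116.8 and 132.8 CPM in WT 1, WT 2, WT 4 and WT 5. As in Ctse, the libraries labelled KO were far below those labelled WT and close to each other. All 5 were lower in the libraries labelled KO, which a likeness to Ctse requires.

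Around Ctse on chromosome 1, 19 measured genes start within 1 Mb. Of these 3 rose, 2 fell and 14 were not called, with a median log2 fold change of -0.03. Among all genes, 6.20% were called higher and 3.84% lower. Rab7b, a Rab GTPase of late endosomes and lysosomes 13.2 kb from Ctse, moved the other way from it. It was at 3.16, 6.21, 11.3 and 8.57 CPM in KO 1, KO 2, KO 4 and KO 5, against 0.685, 0.611, 0.278 and 0.444 CPM in WT 1, WT 2, WT 4 and WT 5 (3.84 ± 0.43, edgeR adjusted p = 0.000512). Its libraries ran in the order of the myeloid marker sum under the KO label.

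The nearest measured genes on the other side, Fam72a (0.18 ± 0.15), Srgap2 (-0.14 ± 0.06) and Ikbke (-0.16 ± 0.05), did not pass, nor did Slc41a1 (-0.15 ± 0.07) and Rab29 (-0.07 ± 0.07) beyond Rab7b. Farther away, the kinase genes Nuak2 (2.71 ± 0.30, edgeR adjusted p = 0.000492) and Dstyk (0.56 ± 0.12, adjusted p = 0.0159) rose. Dstyk did not pass with the host number as a block (adjusted p = 0.0614) or with the library code as a term (0.101). The cytokine gene Il10, 613.3 kb away, fell, at 10.3, 6.34, 40.8 and 9.86 CPM in KO 1, KO 2, KO 4 and KO 5, against 133.5, 92.1, 68.5 and 80.8 CPM in WT 1, WT 2, WT 4 and WT 5 (-2.49 ± 0.53, edgeR adjusted p = 0.0158). Without KO 4 the log2 fold change was -3.41, and with the library code as a term -3.49. Rbbp5, of a histone methyltransferase complex, fell slightly (-0.15 ± 0.04, adjusted p = 0.0254), a call that with 1 library left out held only without KO 4 or without WT 1, and that ended with the host block (0.0698) and with the library code as a term (0.159). None of the 3 nearest measured genes on either side was called lower.

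**Figure D5:**
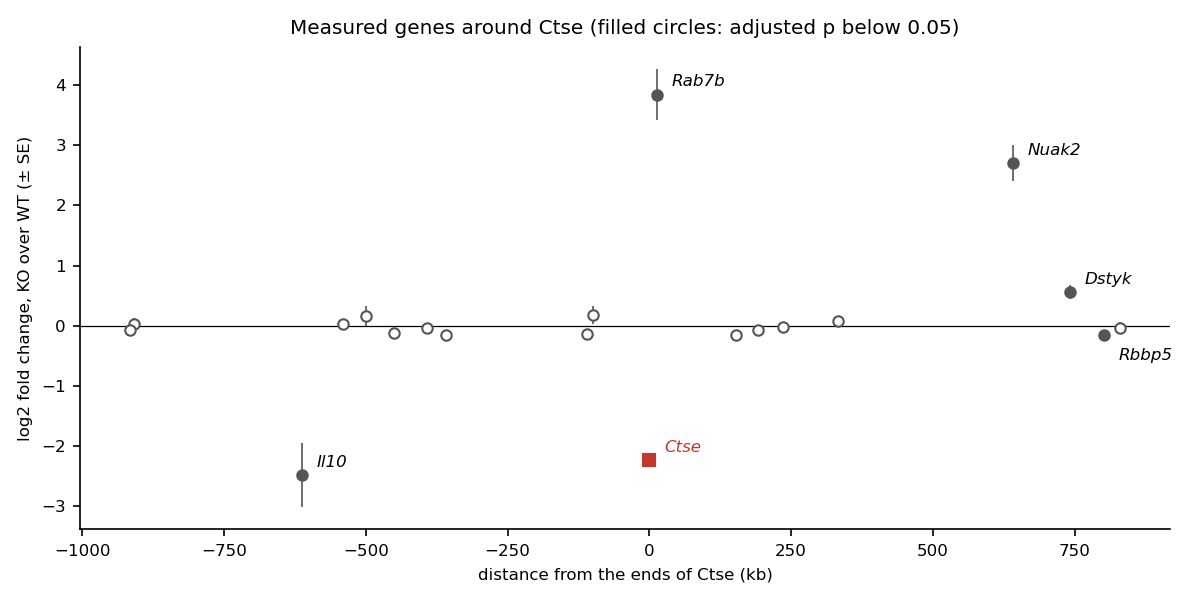
Log2 fold change of the libraries labelled KO over those labelled WT (± SE) against distance from the ends of Ctse in kb, for 19 measured genes (circles, filled where the adjusted p was below 0.05) and for Ctse (red square). Rab7b, 13.2 kb away, stands at 3.84 and Ctse at -2.24, and most of the other genes lie near 0.

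Promoter windows, from 250 bases before to 50 bases after a start site, were held for 6 of the 10 members (Ctsa, Ctsc, Ctsd, Ctsl, Ctss and Ctsz) in the RefSeq table of GRCm38. They were searched for CACGTG, the core of the element that TFEB-type lysosomal factors bind, and for GAGGAA, a core of sites for PU.1 (Spi1), a factor of myeloid cells, on both strands and both chosen after the values were known. The windows of Ctsd and Ctss are shown as examples, each with 2 copies of 1 of these motifs and none of the other. They are not the only ones: a window of Ctsa also held 2 copies of CACGTG alone, and that of Ctsc 2 of GAGGAA alone. Motif letters are in capitals, also where they lie on the other strand, and each window is given on the strand of its gene.
Ctsd (chr7:142387778-142388077, minus strand): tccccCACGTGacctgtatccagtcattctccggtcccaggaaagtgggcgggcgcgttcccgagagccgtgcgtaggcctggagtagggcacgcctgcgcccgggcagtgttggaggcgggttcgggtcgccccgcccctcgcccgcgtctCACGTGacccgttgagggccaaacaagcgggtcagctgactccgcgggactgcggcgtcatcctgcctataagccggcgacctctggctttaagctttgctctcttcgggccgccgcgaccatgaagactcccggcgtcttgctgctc
Ctss (chr3:95526536-95526835, plus strand): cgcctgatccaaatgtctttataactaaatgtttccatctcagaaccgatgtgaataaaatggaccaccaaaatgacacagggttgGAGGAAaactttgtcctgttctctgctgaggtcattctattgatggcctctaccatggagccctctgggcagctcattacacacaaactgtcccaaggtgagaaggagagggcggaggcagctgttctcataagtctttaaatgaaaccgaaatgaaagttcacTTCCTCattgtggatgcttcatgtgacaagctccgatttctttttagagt
CACGTG stood in windows of Ctsd, Ctsa and Ctsl and in 7.15% of all 32851 windows, and GAGGAA in those of Ctss and Ctsc and in 28.3% of all windows. None of the 6 genes had both motifs in its windows. Of the genes higher in the libraries labelled KO, Ctsz had neither motif and Ctsl had CACGTG alone. Spi1 itself was at 8.17 ± 2.81 CPM in the libraries labelled KO and 0.791 ± 0.112 CPM in those labelled WT (3.36 ± 0.28, edgeR adjusted p = 0.000145). A match is a description of the letters and says nothing on whether a factor binds there. The part of Spi1 in the members' differences was not tested.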

How the data were processed

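Poly(A) RNA of 8 libraries had been read as single reads of 81 bases after a stranded TruSeq preparation, per the labels' protocols. The authors deposited a table of raw counts for each gene, with its length in bases. Reads were aligned with STAR to mm10, per the submitters' processing notes; version, counting tool, annotation and strand setting: not given in the sources used here. Totals were 35198192 to 40310721 counts.

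Counts were tested with edgeR 4.0.16 in R 4.3.3 (TMM, filterByExpr, which kept all 11354 genes, estimateDisp, glmQLFit and glmQLFTest on the label alone), with Benjamini-Hochberg adjustment over all genes. The SE is the absolute log2 fold change over the square root of F. RPKM used the table's gene length. Log2 CPM had a prior count of 2. The fits were tested on simulated data. Alternatives were RLE or total-size scaling, no filter, 5 CPM in 4 libraries, DESeq2 1.42.0, limma-voom 3.58.1, the host number as a block, the library code as a term, and each library left out.

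Named were the members, list genes that were called or else up to 4 with the smallest p, up to 4 markers per list by level, called and nearest neighbours of Ctse, and 5 like genes; Grn, Sppl3, Tfe3, Prf1, Nucks1 and others outside this rule were named after their values were seen. The members and lists were chosen with earlier results of these data known. By Entrez identifier 11337 genes matched the RefSeq table of GRCm38, the assembly behind mm10. A planned comparison of the cathepsin proteins was not run, and coding bases are shown in its place. The values of 1 listed aspartic protease are not reported here.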

Additional observations from a re-analysis of the deposited data

Results flagged for a closer look

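In each group of 4 libraries the highest or lowest value was set against the rest, and 10 of 188 groups held a library that stood apart by Dixon's criterion, where chance gives about 1 in 20. In the libraries labelled KO it was KO 4 each time: Il10 was at 40.8 CPM in KO 4 and at 6.34 to 10.3 CPM in the others, Prf1 at 71.0 CPM against 51.1 to 53.4 CPM, Nucks1 at 146 CPM against 171 to 174 CPM, and Dstyk at 6.78 CPM against 5.61 to 5.65 CPM. In the libraries labelled WT, WT 5 held 80.6 CPM of Ctss, with 96.2 to 98.2 CPM in the others. The Ctsw share of the summed cathepsin RPKM was 31.1% in WT 5 and 26.9% to 27.2% in the others, and the Ctsd share was 36.9% against 38.4% to 38.6%. Sppl3 was at 69.8 CPM in WT 5 and at 63.2 to 64.3 CPM in the others. WT 4 held 27.6 CPM of Grn, with 37.4 to 38.9 CPM in the others, and 60.2 CPM of Tfe3, with 62.8 to 63.2 CPM in the others.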

How the results depend on the processing

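The log2 fold change of Ctse stayed between -2.29 and -2.19 with 1 library left out. The members were picked on this difference, so a member past the threshold in a setting is no support for it. Of all genes, 409 were called higher with the filter of 5 CPM in 4 libraries, which tests fewer genes, and 249 lower with the library code as a term; with 1 library left out 276 (without KO 1) to 509 were called lower. Members past the threshold as lower were 2 with total library size and with DESeq2, settings that called 539 and 653 of all genes lower, against 436 in the fit reported, and 1 to 2 with 1 library left out, the second being Ctsd (2 without KO 4). Without WT 1, WT 2 or WT 4 Ctsw was no longer past it, and without KO 5, WT 1, WT 2 or WT 4 neither was Ctsc. Neighbours of Ctse called higher were 1 with the 5 CPM filter; those called lower were 1 with the library code and 1 to 3 with 1 library left out. Related genes called lower were 1 to 3 with 1 library left out. The cause of these moves was not tested. Without gene length, Ctse was 2.96% of the summed CPM of the members in the libraries labelled KO and 13.7% in those labelled WT.

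The host numbers were not taken as pairs, because the labels do not say that a number is 1 mouse that received both kinds of cells. Over all genes, the deviations of same-numbered libraries from their label means correlated at -0.06, 0.18, -0.14 and 0.26 for hosts 1, 2, 4 and 5. With the host number as a block 638 genes were called higher, 382 lower, and 1 neighbour of Ctse lower; the members past the threshold were again 6 higher and 1 lower. Ctsh and Ctsl rest on the fewest counts of the members in the libraries labelled WT (38 to 229 per library). Their coefficients of variation were also the largest of the members. These were 52.2% for Ctsh and 33.2% for Ctsl in the libraries labelled KO, and 37.7% and 14.4% in those labelled WT. The counts and this spread between libraries both limit the precision of their ratios.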
